A study of Mus musculus with 4 samples.

Results

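The Elane-high granulocyte progenitors are single bone marrow cells rich in the transcript of Elane, which encodes neutrophil elastase. They were chosen from the kept cells, which had 500 or more genes, 1000 or more gene UMIs (unique molecular identifiers, the count of captured transcripts) and no more than 10% mitochondrial UMIs. A member had at least 20 Elane UMIs per 10000, fewer than 5 UMIs of Fcnb, a gene of later granulocyte precursors, and fewer than 3 of the monocyte genes F13a1, Ms4a6c, Ly86, Irf8, Csf1r and Ccr2 at 2 or more UMIs. The rule gave 3595 members among 36459 deposited cell barcodes, of which 34122 were kept. The study counted RNA and surface antibodies together (CITE-seq) in mouse bone marrow cells sorted as CD45.2+Kit+, taken 10 weeks post-transplantation. Kit is carried by immature blood cells, and the CD45.2 version of the leukocyte protein CD45 separates transplanted cells from those of the host. There was 1 library for each of 4 groups: control, Mll3SI, Mll4SI and Mll3/4SI. The labels leave SI unexplained and give no strain, Cre driver, sex or number of animals. The meaning of the 2 hashtag antibodies is not given either. MLL3 and MLL4 are the histone H3K4 methyltransferases encoded by Kmt2c and Kmt2d, and the series title places them in stem cell and myeloid identity. Since each group was a single library, nothing could be tested between groups and differences are described; the bracketed 95% intervals reflect counting error and not the spread between animals.

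Granulocytes arise from Kit-bearing progenitors through a promyelocyte stage, in which the primary granule proteins neutrophil elastase, proteinase 3, cathepsin G and myeloperoxidase are made. The transcription factors PU.1, C/EBP alpha and Gfi1 act at this step, and C/EBP epsilon drives the later switch to secondary granule proteins such as lactoferrin, cathelicidin (Camp) and neutrophilic granule protein (Ngp). S100a8 and S100a9 encode the subunits of calprotectin, a cytosolic calcium-binding protein that becomes very abundant in maturing neutrophils.

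The members carried the markers of their label. Levels below are in CPM, UMIs summed over the members of a library and scaled to a total of 1000000 gene UMIs, and sets of 4 values follow the order control, Mll3SI, Mll4SI, Mll3/4SI. Sets of 3 log2 ratios or medians follow the order Mll3SI, Mll4SI, Mll3/4SI, each against control. Elane stood at 9280, 10608, 9836 and 9320.1 CPM, a level set by the rule. Ms4a3, a membrane protein gene of granulocyte-monocyte progenitors that the rule did not use, had a UMI in between 99.4% and 99.9% of the members of each library. Such a share says little at this depth, since 97.0% to 100% of erythroid-marked cells, described below, held an S100a8 UMI. The median member held 24767, 19279, 21596 and 23440 gene UMIs in the same order. Elane-high control cells left out for their Fcnb UMIs held 25924 CPM of Camp, against 775 CPM in the control members. The choice of members had edges: 29 control members lay between 20 and 25 Elane UMIs per 10000 and 23 otherwise eligible control cells between 15 and 20, and 33 control members held 4 Fcnb UMIs beside 29 cells left out with 5. Another 112 control members had 2 of the monocyte genes and 94 cells were left out with 3.

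Markers of the nearest lineages were present in the members. The 5 monocyte markers outside the rule summed to 792, 827, 721 and 689 CPM, with 7.80, 8.23, 5.29 and 2.53 UMIs per 10000 in the median member. Most of this sum was 1 gene, Ly6c2, at 783, 832, 705 and 664 CPM without the cells of both hashtags. In the same cells Mpeg1 stood at 8.86, 8.18, 10.4 and 21.1 CPM and Cx3cr1 at 8.24, 7.67, 6.62 and 9.19 CPM. The sum thus does not show a panel of monocyte genes. Stem markers summed to 261, 305, 367 and 370 CPM, and basophil and mast cell markers to 206, 162, 315 and 416 CPM. Dendritic, T, NK and erythroid markers were sparse in most members. The summed dendritic markers stood between 15.5 and 21.98 CPM per library, the T and NK markers between 0.513 and 2.35 CPM and the erythroid markers between 4.69 and 20.004 CPM, with Cd3e and Ncr1 at 0 in every library. Late granulocyte markers were unevenly spread, with a median between 3.43 and 6.27 UMIs per 10000 per library, while the members at the 95th percentile held 11.6, 250.5, 394 and 436. Between 3.09% and 7.56% of the members of a library passed the thresholds of both hashtags, the sign of a droplet with 2 cells. Pairs of libraries shared 16 to 29 cell barcodes. Xist, expressed from the inactive X chromosome of females, stood at 0, 0.270, 1773 and 1597 CPM, and the Y-linked Eif2s3y at 65.7, 61.6, 0 and 0 CPM. Sex and genotype cannot be told apart for Mll4SI and Mll3/4SI. Kmt2c stood at 87.2, 77.4, 101.1 and 93.4 CPM and Kmt2d at 35.4, 35.1, 32.4 and 30.6 CPM in the members, so transcript levels were no check of the labels.

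Promoter sequences are shown for 6 genes taken from the 3 gene groups on which the results turn: the primary granule genes Elane, Prtn3 and Mpo, the late genes S100a9 and Ngp, and the interferon-stimulated gene Isg15. Each window runs from 250 bases before to 50 bases after the RefSeq start in mouse build GRCm38.p6, read 5′ to 3′ on the gene's strand. They lie at chr10:79886062-79886361 (Elane, plus strand), chr10:79879417-79879716 (Prtn3, plus), chr11:87793534-87793833 (Mpo, plus), chr3:90695672-90695971 (S100a9, minus), chr9:110419558-110419857 (Ngp, plus) and chr4:156200769-156201068 (Isg15, minus). Capitals mark matches on either strand to GAGGAA (a core read by PU.1 and other ETS factors), TTGCNNAA (a core read by C/EBP factors) or the core of an interferon-stimulated response element, which is GAAA, any 2 bases and GAAA; overlapping matches run together.
Elane: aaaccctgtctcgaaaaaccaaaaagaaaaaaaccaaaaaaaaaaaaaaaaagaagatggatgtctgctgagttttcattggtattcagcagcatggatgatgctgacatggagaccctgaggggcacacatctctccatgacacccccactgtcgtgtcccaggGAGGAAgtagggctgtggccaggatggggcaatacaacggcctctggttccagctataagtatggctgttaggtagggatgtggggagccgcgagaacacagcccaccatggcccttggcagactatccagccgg
Prtn3: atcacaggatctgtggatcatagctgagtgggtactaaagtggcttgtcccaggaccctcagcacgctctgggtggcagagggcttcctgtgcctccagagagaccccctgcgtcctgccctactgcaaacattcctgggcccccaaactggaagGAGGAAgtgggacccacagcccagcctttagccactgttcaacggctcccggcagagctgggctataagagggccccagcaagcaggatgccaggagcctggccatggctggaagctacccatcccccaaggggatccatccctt
Mpo: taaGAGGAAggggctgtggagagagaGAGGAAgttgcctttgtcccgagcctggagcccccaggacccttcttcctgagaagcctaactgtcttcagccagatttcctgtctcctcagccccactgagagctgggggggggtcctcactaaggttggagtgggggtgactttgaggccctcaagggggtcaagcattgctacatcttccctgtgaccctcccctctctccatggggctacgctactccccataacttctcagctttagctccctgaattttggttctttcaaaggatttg
S100a9: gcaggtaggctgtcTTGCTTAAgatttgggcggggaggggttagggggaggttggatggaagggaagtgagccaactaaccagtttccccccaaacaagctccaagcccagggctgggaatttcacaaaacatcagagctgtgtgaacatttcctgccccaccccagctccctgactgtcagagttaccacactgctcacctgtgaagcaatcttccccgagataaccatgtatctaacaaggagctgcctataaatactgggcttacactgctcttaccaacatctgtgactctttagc
Ngp: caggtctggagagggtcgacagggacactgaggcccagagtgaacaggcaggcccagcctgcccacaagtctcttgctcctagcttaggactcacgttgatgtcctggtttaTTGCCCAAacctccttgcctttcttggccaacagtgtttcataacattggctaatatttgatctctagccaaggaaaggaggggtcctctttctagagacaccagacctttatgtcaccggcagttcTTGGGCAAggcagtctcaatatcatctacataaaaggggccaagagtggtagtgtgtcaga
Isg15: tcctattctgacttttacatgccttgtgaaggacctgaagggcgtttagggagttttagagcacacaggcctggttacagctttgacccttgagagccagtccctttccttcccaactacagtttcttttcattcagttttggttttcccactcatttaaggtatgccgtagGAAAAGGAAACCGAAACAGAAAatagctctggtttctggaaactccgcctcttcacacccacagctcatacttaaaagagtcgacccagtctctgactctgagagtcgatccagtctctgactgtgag
GAGGAA was found in a window of 8 of the 11 primary granule genes that have one in the RefSeq table, among them Elane, Prtn3, Mpo and Ctsg, and of 9 of 13 late granulocyte genes. It occurs in 28.3% of all 32851 windows. TTGCNNAA was found for 7 of 13 late granulocyte genes and 2 of 11 primary granule genes, against 10.8% of all windows, and the interferon-response core for 7 of 10 interferon genes against 3.44%. A gene with several windows was counted if any of them held a match, so the counts of genes and the shares of windows are unlike measures. All 6 windows shown hold a match, but not every gene of the groups does. The windows of S100a8 and Camp held no TTGCNNAA, and that of Irf7 no interferon-response core. A match is a run of letters and not a shown binding site, and no match says only that these letters are not in this window.

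The share of kept cells that were members differed between the libraries. Control had 11.2% [10.5 to 11.98] and Mll3/4SI 11.3% [10.6 to 12.03], while Mll3SI had 15.04% [14.3 to 15.8] and Mll4SI 6.15% [5.71 to 6.61]. Mll3SI was highest and Mll4SI lowest, with ratios to control of 1.34 [1.23 to 1.46], 0.548 [0.496 to 0.604] and 1.004 [0.915 to 1.10]. The same order of Mll3SI and Mll4SI held within each hashtag: among Hashtag1 cells the shares were 10.03%, 14.5%, 5.94% and 9.24%, and among Hashtag2 cells 12.4%, 15.7%, 6.75% and 13.3%. Elane-high cells of every kind made up 25.4%, 34.7%, 18.9% and 25.6% of kept cells, and members made up 44.2%, 43.4%, 32.6% and 44.1% of those Elane-high cells. The lower share in Mll4SI thus had 2 parts, fewer Elane-high cells and a smaller fraction of them passing the Fcnb and monocyte limits. Those limits count UMIs and depend on depth: thinning every cell to 5000 UMIs before the rule gave an Mll4SI ratio of 0.654.

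**Figure D1:**
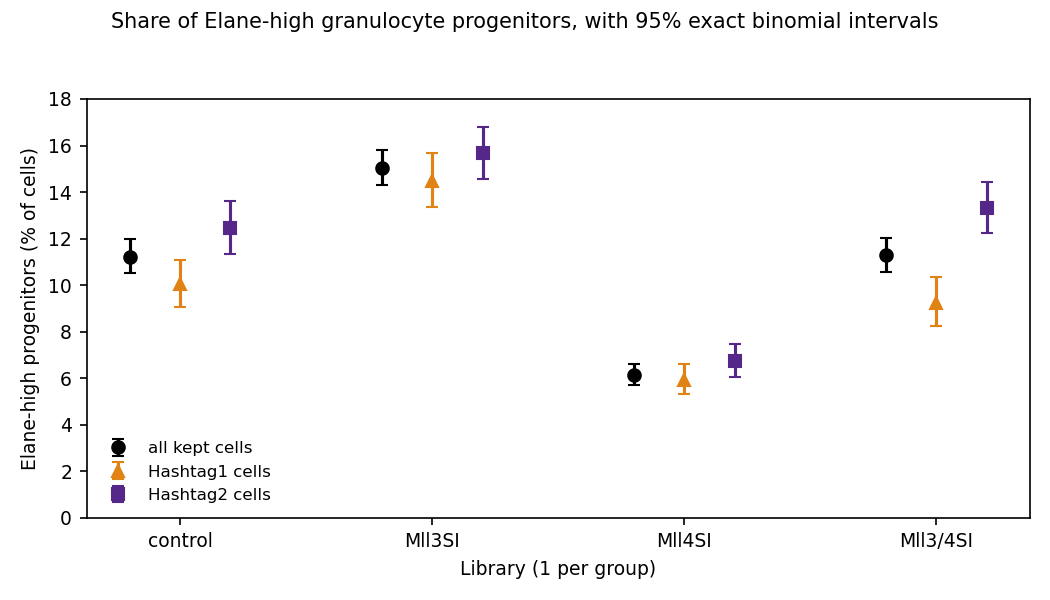
Percentage of kept cells that were Elane-high progenitors in each of the 4 libraries (x axis), for all kept cells and for cells of each hashtag, with exact binomial 95% intervals. Mll3SI (15.04%) lies above control (11.2%) and Mll4SI (6.15%) below it in all 3 sets of cells.

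Over the 12047 genes with a mean of at least 1 CPM over the 4 libraries, 46 (0.382%) lay at least 2-fold higher in Mll3SI members than in control and 37 (0.307%) at least 2-fold lower, 83 in all (0.689%), on the log2 ratio of CPM + 1. Mll4SI had 222 (1.84%) higher and 73 (0.606%) lower, 295 in all (2.45%), and Mll3/4SI 351 (2.91%) higher and 111 (0.921%) lower, 462 in all (3.83%). The median log2 ratio over all 12047 genes was -0.04, 0.01 and -0.03. All 3 comparisons share the same control library. Adding 10 CPM in place of 1 left 8 higher and 9 lower, 38 and 10, and 84 and 21 genes, so most genes past 2-fold were of low level.

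The primary granule genes, which define this stage, differed little. Of the 12 measured genes other than Elane, 0 lay past 2-fold in Mll3SI, and 1 (Lyz2) was higher and 0 lower in both Mll4SI and Mll3/4SI, with list medians of 0.11, -0.06 and 0.12. Prtn3 (proteinase 3) stood at 5839, 7143, 6037 and 7760.2 CPM, log2 ratios of 0.29, 0.05 and 0.41. Mpo (myeloperoxidase) stood at 4948, 4268, 5126 and 6067 CPM, lowest in Mll3SI and highest in Mll3/4SI. Ctsg (cathepsin G) stayed between 6654 and 7914 CPM and Ms4a3 between 1463 and 1918 CPM. In single members Mpo spread most in Mll3/4SI, from 20.9 UMIs per 10000 at the 5th percentile to 116.8 at the 95th, against 32.1 to 72.5 in control. Among 13 myeloid transcription factor genes 0 lay past 2-fold in any library, with medians of -0.05, 0.07 and 0.14. Spi1, which encodes PU.1, stood at 207, 211, 219 and 273 CPM, Gfi1 at 130.4, 128, 148 and 144 CPM, and Cebpe at 158, 151, 151 and 182 CPM. Myc, a growth factor-driven transcription factor, had the lowest ratio of them in Mll3/4SI, at 104 CPM against 171 CPM in control (log2 ratio -0.71).

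**Figure D2:**
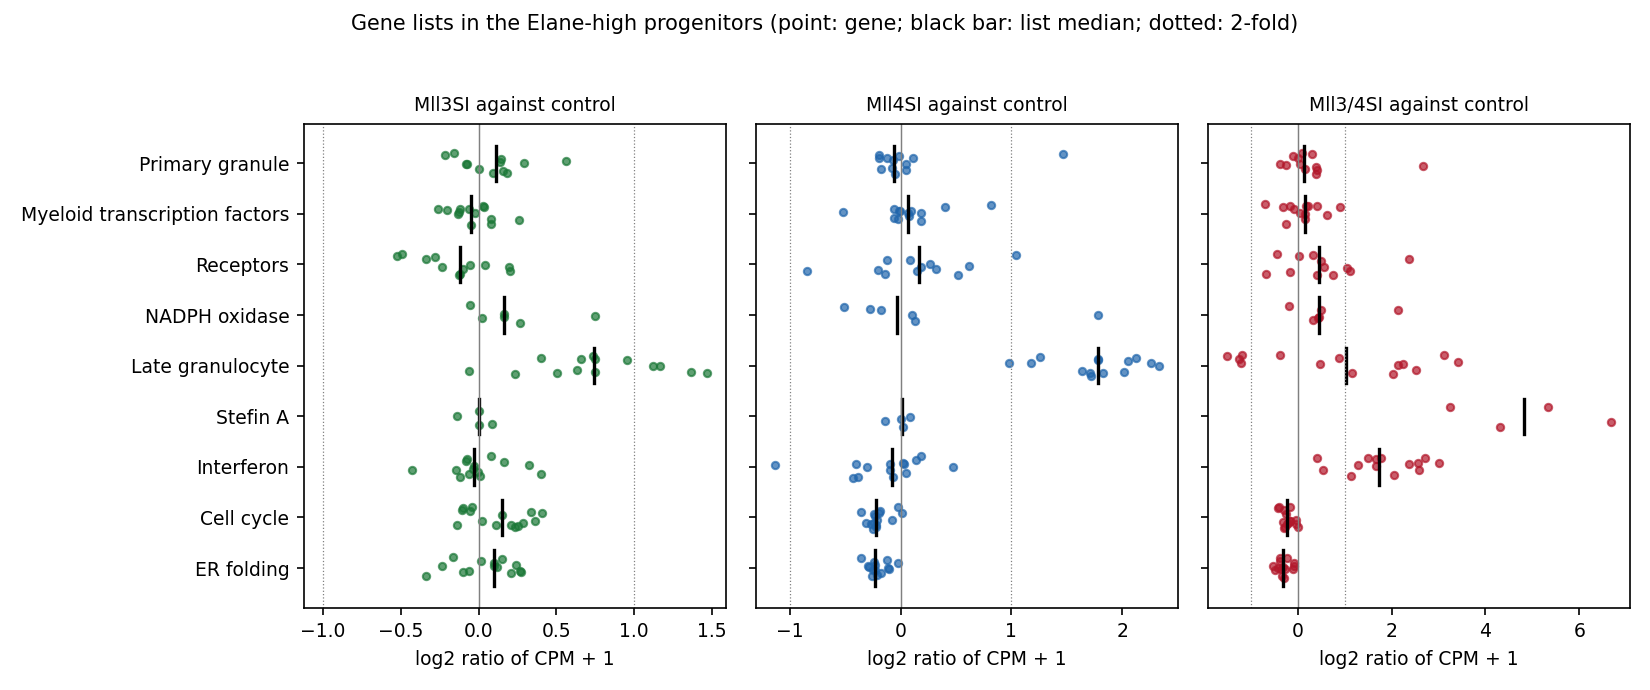
Log2 ratio of CPM + 1 to control for each gene of 9 lists (points), summed over the members, with the list median (black bar) and the 2-fold limits (dotted); the x axes differ between the 3 panels. Late granulocyte genes are shifted up in Mll4SI (median 1.78) and interferon genes in Mll3/4SI (1.72), while primary granule genes centre near 0; the 4 Stefin A genes drawn passed the level filter only through Mll3/4SI. Erythroid-marked cells of Mll4SI also held Ltf, Ngp and Cybb more often than those of control.

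S100a8 (chromosome 3, 90668978 to 90670035) was the late gene with the highest ratio to control in Mll3/4SI. It was counted at 1191, 1884, 4106 and 12707 CPM, lowest in control and by far highest in Mll3/4SI. The log2 ratios were 0.66 [0.64 to 0.68], 1.79 [1.76 to 1.81] and 3.41 [3.397 to 3.44]. S100a9, its partner subunit, followed at 1923, 3210, 6306 and 16723 CPM. Of the 14 late granulocyte genes, Mll3SI had 4 past 2-fold higher, Mll4SI 13 and Mll3/4SI 7, with 0, 0 and 4 past 2-fold lower and list medians of 0.74, 1.78 and 1.02. Camp stood at 775, 2148, 3896 and 3693 CPM and Ngp at 269, 606, 1171 and 1550.3 CPM, so both were higher than control in the other 3 libraries. Lactoferrin (Ltf) stood at 86.7, 169, 353 and 66.3 CPM, the gelatinase gene Mmp9 at 3.104, 4.43, 16.0 and 0.807 CPM, and the chitinase-like gene Chil3 at 130, 185, 462 and 44.7 CPM. These last 3 were highest in Mll4SI and lowest in Mll3/4SI, although Ltf there lay above control among Hashtag2 members (log2 ratio 0.29). In Mll3/4SI Ly6g (1.51 CPM against 4.98 CPM in control) and Mmp8 (0.202 against 1.77 CPM) were also below control, but Mmp8 was above it without the cells of both hashtags (0.071).

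A small number of members held most of the Camp UMIs: the richest 5% held 76.2%, 86.2%, 62.9% and 82.8% of them. Camp at 20 or more UMIs per 10000 was found in 20 control (2.49%), 89 Mll3SI (6.87%), 80 Mll4SI (11.6%) and 70 Mll3/4SI members (8.66%). Members passing both hashtag thresholds made up 35%, 50.6%, 52.5% and 10% of these Camp-high cells, against 2.30%, 4.39%, 1.32% and 2.44% of the other members. Pairs of cells from the same hashtag cannot be seen this way, and their part in these values was not tested. Without the cells of both hashtags, the late list medians were 0.47, 1.47 and 1.10. Restricting to members with Camp under 20 per 10000, a limit chosen after seeing the data, gave medians over the same 14 genes of -0.24, 0.46 and 0.22, and S100a8 then stood at 590, 480.4, 858 and 6397 CPM (log2 ratios -0.30, 0.54 and 3.44). Camp and Ngp in Mll3SI then lay below control, at -0.29 and -0.36. Camp is itself a late gene, so this limit lowers the late list by construction and does not show where the excess of late transcripts lay.

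The typical member showed the same contrast. The median member held 4.01, 3.41, 5.86 and 12.4 S100a8 UMIs per 10000. Erythroid-marked cells, which should lack S100a8 and so show free RNA, had medians of 3.96, 2.76, 4.49 and 3.09 per 10000 (176, 132, 51 and 47 cells). The median member was thus close to free RNA in the first 3 libraries and above it in Mll3/4SI. Summed over erythroid-marked cells, S100a8 stood at 1869, 3542, 7102 and 308 CPM, above the members in the first 3 libraries and below them in Mll3/4SI. For S100a9 the members' medians were 5.96, 4.47, 7.91 and 6.04 against 6.33, 4.31, 7.26 and 4.66 in erythroid-marked cells, and for Camp 2.003, 1.61, 3.20 and 1.80 against 2.21, 1.84, 3.09 and 1.47. Neither the S100a9 nor the Camp median stood far from that background in any library. Lyz2, which encodes lysozyme, had member medians of 1.30, 1.10, 1.93 and 4.39 per 10000, against 0.473, 0.510, 0.880 and 0.204 in erythroid-marked cells.

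Members rich in S100a8 without Camp were most frequent in Mll3/4SI. S100a8 at 20 or more and Camp under 20 per 10000 were found in 44 of 803 control members (5.48% [4.01 to 7.29]), 55 Mll3SI members (4.24%), 65 Mll4SI members (9.45%) and 278 of 808 Mll3/4SI members (34.4% [31.1 to 37.8]). The share was 26.4% in Hashtag1 and 39.1% in Hashtag2 members of Mll3/4SI, both above the share of either hashtag in the other libraries (2.58% to 10.2%). Few of these cells carried both hashtags (2.16% in Mll3/4SI). They held more Prtn3 than the members low in S100a8 in each library: 10345 against 5669 CPM in control, 12229 against 7108 CPM in Mll3SI, 11623 against 5762 CPM in Mll4SI and 11612 against 6340 CPM in Mll3/4SI. They held less Cd34, a progenitor surface protein: 15.4 against 108 CPM, 8.05 against 75.6 CPM, 11.9 against 103 CPM and 21.0 against 108 CPM. Mki67, a marker of proliferation, stood at 102 against 148 CPM in control and 138 against 130.5 CPM in Mll3/4SI. Their S100a8 itself, used to split them, reached 3858, 3011, 4106 and 19494 CPM.

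**Figure D3:**
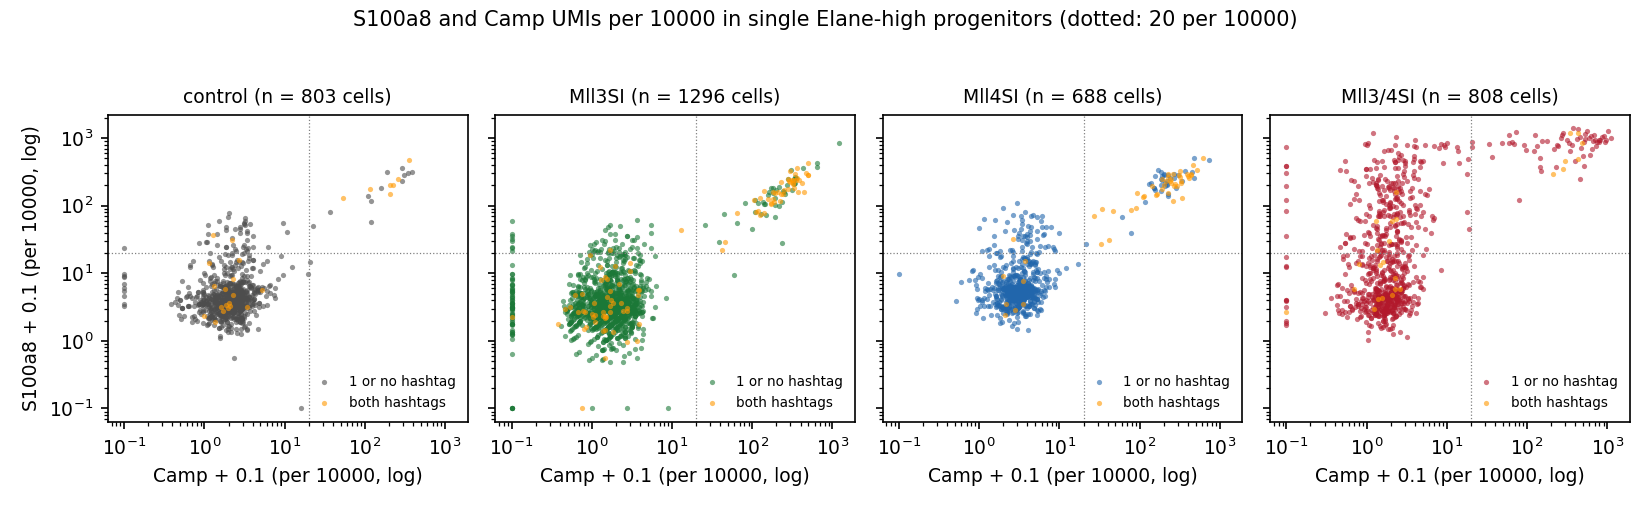
S100a8 (y) against Camp (x) UMIs per 10000 in each member, both on log axes after adding 0.1, with members passing both hashtag thresholds in orange and the limits of 20 per 10000 dotted. The upper left field holds 34.4% of Mll3/4SI members and 4.24% to 9.45% of members in the other libraries, and the upper right field of Mll3SI and Mll4SI is rich in orange cells.

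Rgcc, a cell cycle regulator gene (chromosome 14, 79288756 to 79301645), was far lower in Mll3/4SI than in the other libraries. It stood at 704, 672, 621 and 36.1 CPM, and in Mll3/4SI the log2 ratio was -4.25 [-4.39 to -4.18]. The ratio was -4.11 in Hashtag1 and -4.40 in Hashtag2 members. After thinning to 5000 UMIs, 89.7%, 90.1%, 87.9% and 14.2% of members held an Rgcc UMI (98.1%, 97.8%, 98.0% and 37.6% unthinned). In erythroid-marked cells the thinned shares were 7.95%, 15.2%, 5.88% and 8.51%, the last from 4 of 47 cells [2.37 to 20.4]. After thinning, the Mll3/4SI members thus lay near that background. Unthinned, the erythroid-marked shares were 26.1%, 30.3%, 31.4% and 14.9%, and the Mll3/4SI members lay above the last of these. Ncmap, a myelin-associated membrane protein gene (chromosome 4, 135369576 to 135398227), went the other way. It had no UMI in 803 control and 1296 Mll3SI members, which allows up to 0.148 and 0.116 CPM, and stood at 45.2 CPM in Mll4SI and at 21.4 CPM in Mll3/4SI members. Against the control limit of 3 UMIs this is at least 306-fold and at least 145-fold higher. It was spread over the members, with a UMI in 61.0% of Mll4SI and 39.0% of Mll3/4SI members, and not held by a few.

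The Stefin A genes, a chromosome 16 cluster of cysteine protease inhibitors, were counted mainly in Mll3/4SI members. The 7 listed genes found in the files summed to 0.197, 0.116, 0.128 and 173 CPM. The 4 genes that passed the mean of 1 CPM did so only through Mll3/4SI, so their direction there was fixed by that filter. Cstdc5 stood at 0, 0, 0.0641 and 100.7 CPM, at least 681-fold higher in Mll3/4SI than the control limit of 3 UMIs. Stfa1 stood at 0.0493, 0.116, 0.0641 and 41.2 CPM, from 1 UMI in control. These levels came from few cells: a Cstdc5 UMI was found in 53 of 808 Mll3/4SI members (6.56%), and 5% of the cells held 99.3% of its UMIs. Cells high in both S100a8 and Camp held 1094 CPM of Cstdc5, against 0.799 CPM in members low in S100a8. The family members are close copies, so the counts of single genes are uncertain.

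Interferon-stimulated genes were higher in Mll3/4SI. Of 14 measured, 12 were past 2-fold higher in Mll3/4SI and none lower, against 0 higher and 0 lower in Mll3SI and 0 higher and 1 lower in Mll4SI, with medians of -0.03, -0.08 and 1.72. Isg15, a ubiquitin-like antiviral protein whose promoter is printed above with 3 matches to the interferon-response core, stood at 4.14, 4.43, 4.23 and 29.3 CPM. The nucleic acid sensor gene Zbp1 stood at 1.53, 1.46, 1.41 and 14.2 CPM, Irf7 at 0.887, 0.886, 0.449 and 8.73 CPM, and Rtp4 at 1.43, 2.04, 2.37 and 14.8 CPM. The 2 genes below 2-fold were Bst2 (148, 146, 119.9 and 198 CPM) and Stat2. Irf7 and Rsad2 passed the level filter only through Mll3/4SI, and of the other 12 genes 10 were past 2-fold higher. Over the 14 genes the Mll3/4SI median was 1.05 among Hashtag1 and 2.01 among Hashtag2 members. Erythroid-marked cells held 45.1 CPM of Isg15 in Mll3/4SI and 5.88 to 10.6 CPM in the other libraries, so the higher level there was not particular to the members.

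Growth factor and chemokine receptor genes were mostly higher in Mll3/4SI. Of 12 measured, 3 were past 2-fold higher there and 0 lower, and the medians were -0.12, 0.17 and 0.45. Csf2rb, the shared beta chain of the GM-CSF, IL-3 and IL-5 receptors, stood at 22.5, 17.6, 35.1 and 49.5 CPM. Il3ra, the IL-3 receptor alpha chain, stood at 17.3, 14.1, 25.2 and 36.6 CPM, and Cxcr2, a neutrophil chemokine receptor, at 4.63, 3.005, 10.6 and 28.3 CPM. All 3 were lowest in Mll3SI and highest in Mll3/4SI. The G-CSF receptor gene Csf3r differed less, at 90.8, 84.6, 83.2 and 121 CPM. Among the NADPH oxidase genes, which make the respiratory burst, Cybb stood at 42.0, 71.3, 147 and 187 CPM, and 1 of 6 genes was past 2-fold in Mll4SI and in Mll3/4SI (Cybb in both, a gene also counted in the late granulocyte list). Cell cycle genes lay slightly below control in Mll4SI (14 of 15 lower, median -0.22) and Mll3/4SI (15 of 15 lower, median -0.24), with none past 2-fold. Endoplasmic reticulum folding genes lay below control in 14 of 14 cases in both, with medians of -0.23 and -0.33, again none past 2-fold. For comparison, the median over all 12047 genes was 0.01 in Mll4SI and -0.03 in Mll3/4SI. The Mll3/4SI folding median was -0.07 among Hashtag1 and -0.51 among Hashtag2 members.

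Some members carried transcripts of neighbouring lineages. Cpa3, the mast cell carboxypeptidase also made in early basophil and mast progenitors, stood at 68.6, 27.4, 194 and 216 CPM. At least 5 Cpa3 UMIs were found in 11.3%, 3.24%, 22.2% and 21.7% of members, lowest in Mll3SI and highest in Mll4SI and Mll3/4SI. Any Cpa3 UMI was found in 26.2%, 11.4%, 40.1% and 36.9% of members and in 20.5%, 15.9%, 45.1% and 44.7% of erythroid-marked cells. After thinning the shares were 13.9%, 5.56%, 26.6% and 24.6% against 7.39%, 5.30%, 13.7% and 10.6% (13, 7, 7 and 5 erythroid-marked cells). The order of the libraries was the same in both kinds of cells, so it was not particular to the members. Fcer1a, the IgE receptor alpha chain, stood at 0.345, 0.501, 4.81 and 10.2 CPM, but Mcpt8, a basophil protease gene, was not higher (31.4, 37.1, 18.01 and 26.1 CPM). Fcer1a in Mll3/4SI had a log2 ratio of 0.39 among Hashtag1 and 3.72 among Hashtag2 members. The eosinophil granule gene Prg2 stood at 89.9, 70.2, 34.8 and 42.6 CPM, but the Mll3/4SI value depended on few cells. It was 4.25 CPM without the cells of both hashtags (log2 ratio -4.18), and it lay above control with an Elane limit of 10 (0.43) or 40 (1.12). B-lymphoid transcripts were also found in Mll3SI. Of the 8 genes measured, 5 passed the level filter only through Mll3SI, and 2 of the other 3 were past 2-fold higher there. Ebf1 stood at 0.296, 22.2, 4.36 and 0.202 CPM. These came from few cells, since 16 of 1296 Mll3SI members held at least 3 B-lymphoid genes at 2 or more UMIs, and 31.2% of the 16 passed both hashtag thresholds. Without cells of both hashtags Ebf1 stood at 0.309, 13.2, 0.285 and 0.212 CPM. Hoxa9, a stem and progenitor transcription factor, was lower in Mll4SI and Mll3/4SI, at 24.7, 20.5, 7.43 and 7.27 CPM, and it was lower in the same libraries in erythroid-marked cells (24.9, 24.3, 5.29 and 9.53 CPM).

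Apart from the lists, the 10 highest and 10 lowest genes of each comparison with a mean of at least 10 CPM were taken, with the same sign in both hashtags. In Mll3SI the lowest were E230032D23Rik (32.4, 0.231, 16.0 and 37.2 CPM) and Tpm3-rs7 (157, 4.89, 83.4 and 4.59 CPM), the latter a tropomyosin copy that shares sequence with its parent gene and is therefore uncertain. Tspan32, a tetraspanin gene of blood cells, stood at 83.5, 17.4, 77.4 and 78.8 CPM, and Rabgef1, an endosomal exchange factor gene, at 18.03, 46.3, 17.2 and 16.6 CPM. Tpm3-rs7 and Tspan32 were low in Mll3SI in cells of another lineage too. Erythroid-marked cells held 113, 4.099, 69.4 and 1.91 CPM of Tpm3-rs7 and 127, 54.3, 75.8 and 129 CPM of Tspan32. In those cells, unlike in the members, Tspan32 was also clearly below control in Mll4SI. Tpm3-rs7, 1700016D06Rik (64.1, 4.39, 74.8 and 2.62 CPM) and A630089N07Rik (205, 64.8, 180.5 and 56.3 CPM) were low in both Mll3SI and Mll3/4SI. Afap1, an actin filament-associated gene, and Tnfsf13, which encodes the cytokine APRIL, were low in both Mll4SI and Mll3/4SI, with Afap1 at 65.3, 71.5, 18.3 and 19.9 CPM and Tnfsf13 at 73.6, 92.6, 23.6 and 28.6 CPM. The heparan sulfate proteoglycan gene Sdc2 was high in the same libraries (7.19, 10.8, 39.7 and 29.8 CPM). Of the 10 highest genes, 4 in Mll3SI (Camp, Ngp, Lcn2 and Ltf) and 3 in Mll4SI (Camp, Ngp and Ltf) were late granulocyte genes.

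The level of Elane itself, part of the rule, ordered the members into 20 to 40, 40 to 80 and over 80 UMIs per 10000. The control members numbered 95, 242 and 466 in these bins. In control, Prtn3 went from 2577 to 4035 and 7569 CPM over the bins, Rgcc from 272 to 515 and 904 CPM, and Cd34 from 246 to 144 and 49.5 CPM. The direction of these 3 genes was the same in all 4 libraries. Rgcc in Mll3/4SI stayed low in every bin, at 10.3, 19.3 and 52.8 CPM. Cpa3 lay mostly in the lowest bin, with 319, 186, 707 and 628 CPM there and 11.4, 4.29, 50.01 and 56.1 CPM in the highest. Prtn3 in the lowest bin was 4108 CPM in Mll3/4SI against 2450 to 2684 CPM in the other libraries. S100a8 in Mll3/4SI was above the other libraries in each bin, at 18701, 11255 and 11785 CPM, against 1154 to 1215 CPM in control.

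**Figure D4:**
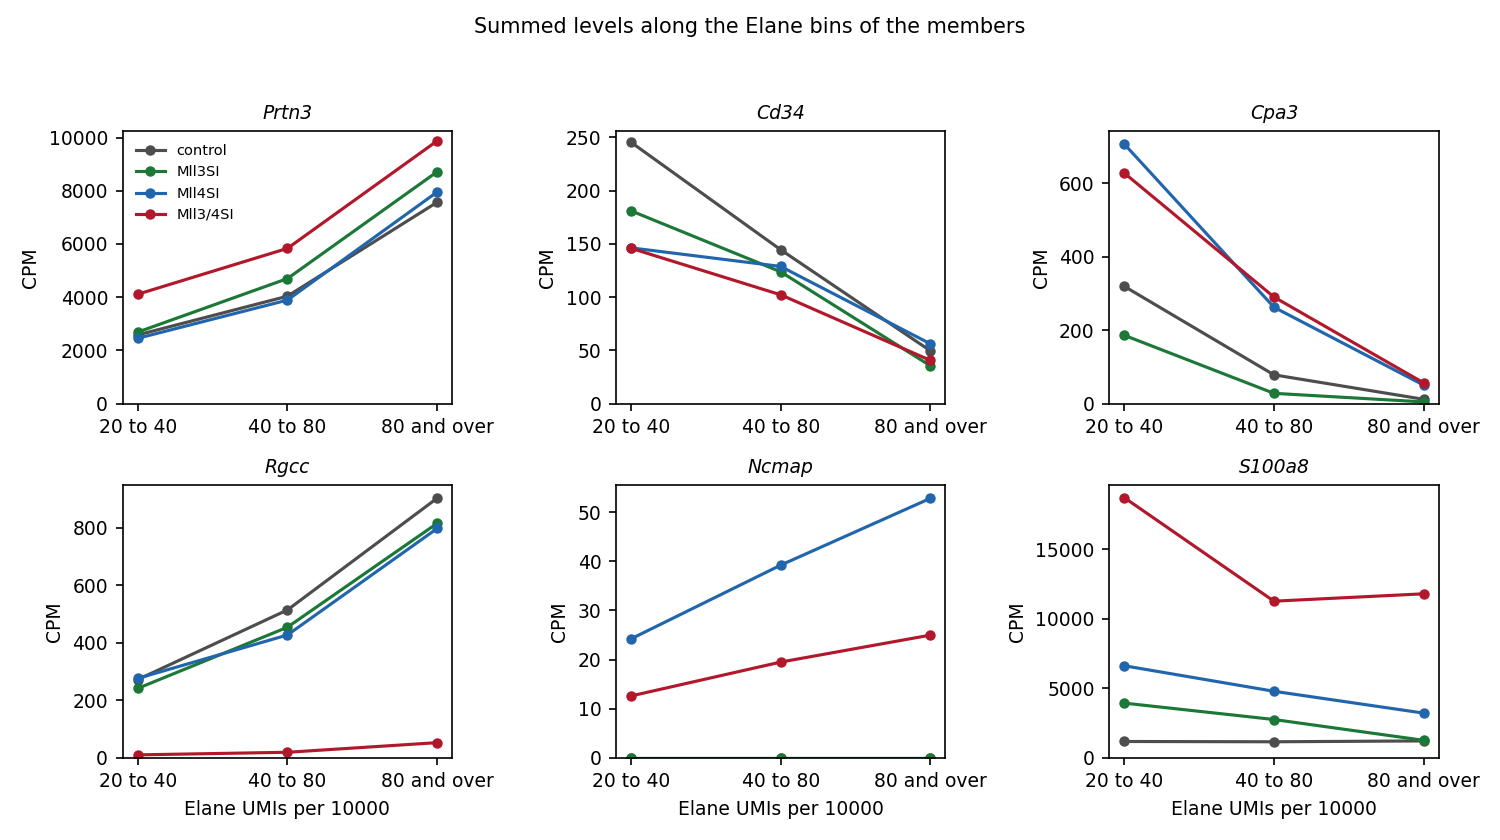
Summed CPM (y) of 6 genes in members grouped by Elane UMIs per 10000 (x), 1 line per library. Prtn3 climbs and Cd34 falls from bin to bin in every library, Rgcc climbs in all but stays under 60 CPM in Mll3/4SI, and Cpa3 lies mostly in the lowest bin.

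Surface antibodies took no part in the rule and differed mainly in Mll3/4SI. CD16_32, the Fc receptors that mark granulocyte-monocyte progenitors, had medians of 362, 362, 358 and 832 antibody UMIs per member. CD11b, an integrin of myeloid cells, had medians of 25, 28, 24 and 73.5, and Gr1, a granulocyte antigen, of 40, 49.5, 53 and 28. Members of Mll3/4SI were thus high in CD16_32 and CD11b and low in Gr1. Erythroid-marked cells had Gr1 medians of 30, 33.5, 35 and 20, not far below the members, and the other kept cells of 356, 315, 299 and 61. The lower Gr1 of Mll3/4SI was therefore not particular to the members. For CD16_32 the erythroid-marked medians were 27.5, 34.5, 28 and 29, and for CD11b 7, 7.5, 11 and 9. As a share of all antibody UMIs of the members, CD11b had log2 ratios of 0.49, 1.07 and 1.65, Gr1 of 0.78, 1.06 and -1.39, and CD16_32 of 0.07, 0.28 and 0.93. The Mll4SI value of CD11b was not seen in the median cell, where the difference of the centred log ratio was -0.046. Transcripts ran in the same direction for CD11b (Itgam at 31.6, 33.9, 48.5 and 86.8 CPM), but Fcgr3, which encodes CD16, hardly differed (146, 124, 166 and 149 CPM). For Gr1, Ly6g was a low-level gene at 4.98, 8.28, 13.3 and 1.51 CPM that ran in the same direction. Ly6c2, whose product Gr1 antibodies can also bind, was far more abundant. Without the cells of both hashtags it stood at 783, 832, 705 and 664 CPM. Its log2 ratios of 0.09, -0.15 and -0.24 were small and opposite to the antibody in Mll4SI. Transcripts thus gave no uniform match to the Gr1 antibody. CD41, an integrin of megakaryocytes and some early progenitors, had medians of 10, 5, 21 and 37.5 and log2 ratios of -0.86, 0.94 and 1.70, and its gene Itga2b stood at 7.54, 4.78, 10.6 and 16.9 CPM. CD117, the Kit protein used in the sort, had medians of 307, 257, 278 and 232. CD201 had a log2 ratio of 5.22 in Mll3/4SI that came from 1 cell with 95.8% of its UMIs, and its median was 3 against 1 in control.

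**Figure D5:**
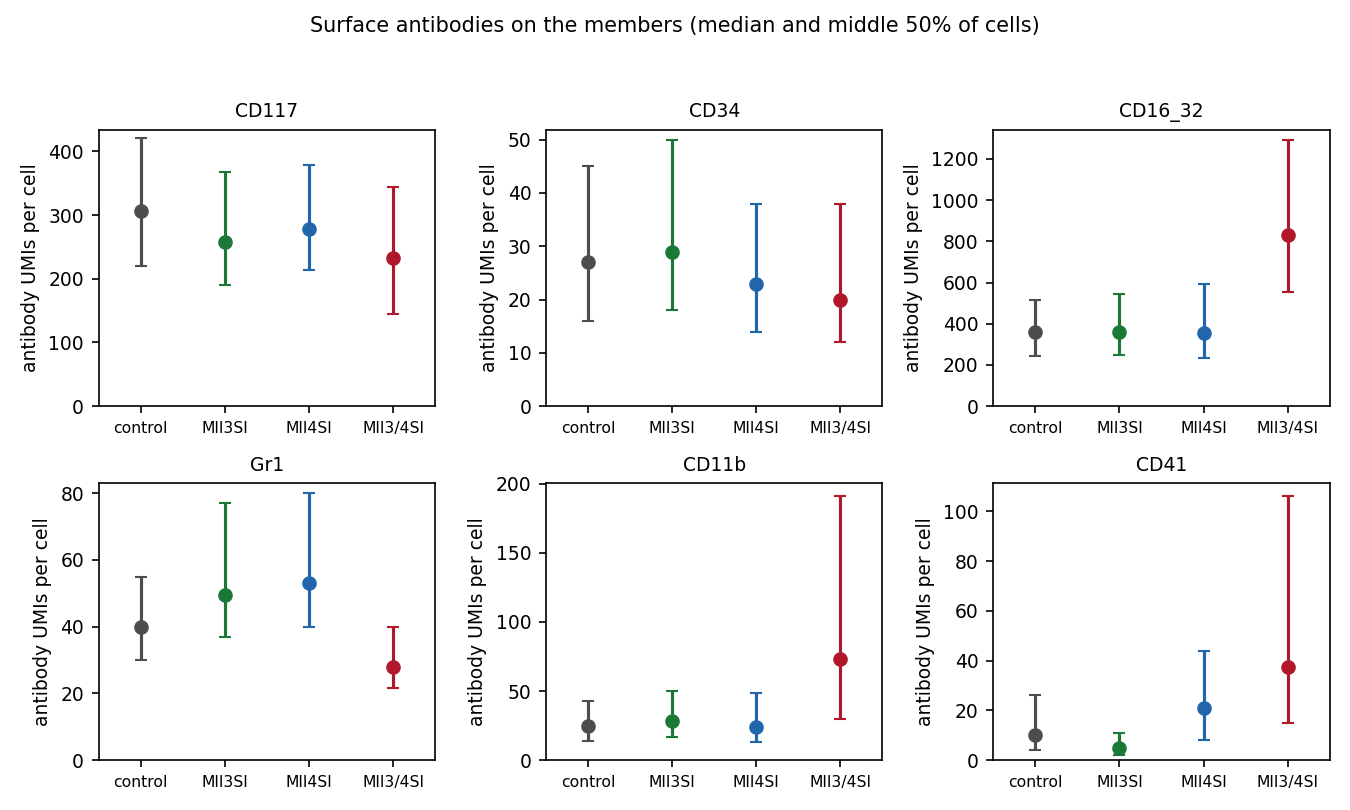
Antibody UMIs per member (y) for 6 surface proteins in the 4 libraries (x), as the median with the range of the middle 50% of cells. CD16_32, CD11b and CD41 are highest and Gr1 lowest in Mll3/4SI, and CD41 is lowest in Mll3SI.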

How the data were processed

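RNA and 15 antibodies (13 surface, 2 hashtags) were counted in 4 libraries. The deposited values were UMI counts per feature and cell barcode, made by the authors with Cell Ranger 7.1.0 on build mm10, per the submitters' processing notes; filters and annotation are not given in the sources used here. Members followed the rule in the text, and the members and gene lists were chosen with earlier results of these data known. UMIs were summed over members per library and scaled to CPM. Ratios are log2 of CPM + 1, which understates low genes, and their intervals use the raw counts. Lists used genes of at least 1 CPM, leaving out the genes of the rule. Ratio intervals are exact conditional Poisson, and shares exact Clopper-Pearson. Named genes were the list genes and the 10 highest and 10 lowest of each comparison. No doublet caller was run; cells over both 142 Hashtag1 and 339 Hashtag2 UMIs, thresholds placed after seeing the data, were removed in an alternative. Erythroid-marked cells held at least 3 of 7 erythroid genes at 2 UMIs and Elane under 20 per 10000. Gene coordinates are from the GENCODE annotation of GRCm38 (32235 of 32285 IDs matched). The log2 ratios were tested on simulated counts with known changes, and the member rule was not tested this way. Python 3.11.15, numpy 2.4.6, scipy 1.17.1 and pandas 2.3.3 were used. Depth was between 140546094 and 177753607 gene UMIs per library, and between 15603556 and 25958025 over the members of a library.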

Additional observations from a re-analysis of the deposited data

Results flagged for a closer look

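The share of Mll3/4SI cells that were Elane-high progenitors differed in direction between the hashtags. Its ratio to control was 0.920 [0.790 to 1.07] among Hashtag1 cells (277 of 2999 cells) and 1.07 [0.945 to 1.21] among Hashtag2 cells (504 of 3789 cells). The difference between the hashtags was not tested, both intervals include a ratio of 1, and the labels do not say what the hashtags marked.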

How the results depend on the processing

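With 1 library per group, no setting tests the spread between animals. No paired analysis was possible because each group holds 1 library. For the share of members, the Mll3SI ratio was 0.981 when taken over Elane-high cells in place of kept cells. The Mll4SI ratio was 0.736 over Elane-high cells, 0.654 after thinning to 5000 UMIs, 0.467 with fewer than 2 monocyte genes and 0.641 with Fcnb under 1 UMI. The Mll3/4SI ratio was 0.846 and 1.26 under the last 2 limits.

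Genes past 2-fold with 10 CPM added numbered 8 higher and 9 lower in the Mll3SI comparison, then 38 and 10 for Mll4SI and 84 and 21 for Mll3/4SI. Among genes of at least 10 CPM they numbered 7 and 14, 71 and 23, and 126 and 41. Hashtag1 cells gave 107 lower in Mll3SI, 115 lower in Mll4SI and 215 higher in Mll3/4SI, and members with Camp under 20 per 10000 gave 30 higher in Mll3SI.

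Among list medians, that same Camp limit, chosen after seeing the data, gave -0.30 and 0.43 for the late granulocyte list in Mll3SI and Mll4SI, lower by construction since Camp is in the list. These medians leave out Ly6g, Mmp8 and Mmp9, then under 1 CPM; over the same 14 genes the medians were -0.24, 0.46 and, in Mll3/4SI, 0.22. With 10 CPM added, the Mll3/4SI medians were 1.98 for Stefin A and 0.87 for interferon genes. Hashtag1 cells gave 1.12 for interferon genes of at least 1 CPM among them, -0.15 for cell cycle and -0.068 for folding genes in Mll3/4SI, and -0.11 for folding and 0.066 for primary granule genes in Mll4SI. Hashtag2 cells gave -0.51 for folding genes in Mll3/4SI. In Mll4SI, thinning gave -0.087 for cell cycle and -0.29 for folding genes, Fcnb under 1 UMI -0.25 for cell cycle and 0.054 for primary granule genes, and a mean over cells -0.28 for cell cycle genes. The causes were not tested.

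Antibodies past 2-fold numbered 0, 2 and 4 in Mll3SI, Mll4SI and Mll3/4SI. Mll3SI had 1 with Elane at 40, thinning or centred log ratios, and 2 with Fcnb under 1 UMI or in Hashtag1 cells. Mll4SI had 1 with Fcnb under 1 UMI, without cells of both hashtags, and within either hashtag, and 0 without hashtag UMIs in the total or by centred log ratios. Mll3/4SI had 2 in Hashtag1 cells and by centred log ratios.

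Some single log2 ratios changed direction. With Camp under 20 these were Lcn2 (-0.19 in Mll3SI, -0.095 in Mll4SI), Chil3 (-0.24) and Cd177 (-0.00249) in Mll4SI, Camp and Ngp in Mll3SI (-0.29 and -0.36), Camp in Mll3/4SI (-0.15), Mmp8 in Mll3/4SI (0.084) and Ebf1 in Mll4SI (-0.00350). Without cells of both hashtags these were Car1 in Mll3SI (0.70), Pf4 in Mll4SI (-0.33), Mmp8 in Mll3/4SI (0.071) and Ebf1 in Mll4SI (-0.027). Hashtag1 cells gave 0.87 for Car1 in Mll3SI and -0.063 for Ebf1 in Mll4SI. Hashtag2 cells gave 0.53 for Car1 in Mll3SI, -0.70 and -0.31 for Pf4 in Mll4SI and Mll3/4SI, 0.20 for Mmp8 in Mll3/4SI and -0.000606 for Ebf1 in Mll4SI. Other membership limits turned Prg2 in Mll3/4SI (0.43 with Elane at 10, 1.12 at 40), Pf4 in Mll4SI (-0.34 with fewer than 2 monocyte genes, -0.48 with Fcnb under 1 UMI), Mmp8 in Mll3/4SI (0.27 after thinning) and Ebf1 in Mll4SI (-0.78 with Elane at 10). The centred log ratio turned the CD11b antibody in Mll4SI (-0.046).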
